A study of Mus musculus with 2 samples.

Results

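The Reg family comprises small secreted proteins with a C-type lectin fold, and its mouse members Reg1, Reg2, Reg3a, Reg3b, Reg3d, Reg3g and Reg4 were followed here in pancreatic islets. The members were taken as every probe set whose platform symbol is exactly 1 of these 7 genes. This gave 8 probe sets for 7 of the 18193 named genes on the array, with 2 probe sets for Reg3b and 1 for each other gene. No Reg probe set was shared with another named gene. The family was picked because its signals differed between the arrays, so its values are given as a description and none was tested.

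The study looked for genes that depend on the transcription factor ZBTB20 in beta cells. It hybridised 1 array with RNA from islets of mice with a beta cell-specific Zbtb20 knockout and 1 array with RNA from islets of littermate controls labelled wildtype. By age the mice of both groups were between 2 and 3 months, and their strain is labelled as a mixed background. The promoter that drove the deletion, the deleted part of the gene and the number of mice behind each array are not given in the sources used here. Both islet preparations came from collagenase digestion, were picked by hand and spent a night in culture before freezing. With 1 array per genotype no replicate error exists, and each ratio compares 2 RNA preparations.

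The values are linear signals that the MAS5 algorithm of Affymetrix makes from the probes of a probe set. Since detection calls were not used here, the median of each array (21.7 on the knockout-labelled array and 21.6 on the control array) served as a floor, and a lower signal was raised to it before a ratio was taken. A gene at or under the floor on both arrays has no ratio. The islet hormone genes had very high signals on both arrays, with Ins2 at 7786 in knockout-labelled and 9194 in control islets, Gcg at 10292 and 11215, and Sst at 9770 and 9661 in the same order. The targeted gene did not check the label: of 9 Zbtb20 probe sets, 5 were lower and 4 higher in knockout-labelled islets, with log2 ratios between -0.87 and 0.54. The array is therefore called knockout-labelled throughout.

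Reg genes were first found in regenerating rat islets, and in the normal pancreas they are made mainly by exocrine acinar cells. Reg1 encodes the pancreatic stone protein, and Reg3b the pancreatitis-associated protein, an acute-phase product of injured acinar cells. Transcription of Reg3 genes is induced by cytokines of the interleukin-6 and interleukin-22 families through the factor STAT3. In the gut, Reg3g and its relatives act against bacteria.

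Of the 7 genes, 6 lie side by side within 97.99 kb of mouse chromosome 6, and Reg4 lies on chromosome 3. The stretches of 250 bases before the annotated gene starts (RefSeq, GRCm38.p6) are shown for the 6 clustered genes, because genes with clearly lower signal and genes with no measurable signal stand next to each other there. Each is written 5′ to 3′ on the strand of its gene. Capitals mark matches, on either strand, to the TATA box letters TATAAA, the E-box letters CACCTG, which the acinar factor PTF1 can bind, and the STAT-type letters TTCNNNGAA.
Reg2, chr6:78404905-78405154, + strand: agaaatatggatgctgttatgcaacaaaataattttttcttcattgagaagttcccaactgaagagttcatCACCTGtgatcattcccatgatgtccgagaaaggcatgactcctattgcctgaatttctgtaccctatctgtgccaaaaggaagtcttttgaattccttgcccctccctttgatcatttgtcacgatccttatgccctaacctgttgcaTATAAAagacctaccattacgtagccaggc
Reg1, chr6:78425733-78425982, + strand: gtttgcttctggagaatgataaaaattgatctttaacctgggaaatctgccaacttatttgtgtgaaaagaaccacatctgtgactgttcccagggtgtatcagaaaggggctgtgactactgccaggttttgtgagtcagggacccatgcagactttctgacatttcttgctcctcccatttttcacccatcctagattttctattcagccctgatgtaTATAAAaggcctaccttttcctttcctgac
Reg3b, chr6:78370635-78370884, + strand: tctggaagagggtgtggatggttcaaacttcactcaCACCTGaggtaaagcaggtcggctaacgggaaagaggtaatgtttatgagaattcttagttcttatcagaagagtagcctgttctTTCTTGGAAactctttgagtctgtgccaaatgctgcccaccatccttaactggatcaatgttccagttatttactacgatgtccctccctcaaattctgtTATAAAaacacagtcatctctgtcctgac
Reg3d, chr6:78378866-78379115, - strand: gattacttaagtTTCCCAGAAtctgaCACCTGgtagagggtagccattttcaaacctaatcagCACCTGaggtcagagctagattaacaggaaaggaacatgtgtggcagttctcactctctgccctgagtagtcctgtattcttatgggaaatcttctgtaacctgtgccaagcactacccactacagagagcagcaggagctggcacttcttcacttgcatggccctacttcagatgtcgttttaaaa
Reg3a, chr6:78380459-78380708, + strand: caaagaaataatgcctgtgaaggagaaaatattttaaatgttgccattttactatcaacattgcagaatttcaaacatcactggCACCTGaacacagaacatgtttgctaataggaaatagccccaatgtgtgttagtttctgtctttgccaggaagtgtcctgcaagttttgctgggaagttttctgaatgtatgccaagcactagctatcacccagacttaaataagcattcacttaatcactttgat
Reg3g, chr6:78468875-78469124, - strand: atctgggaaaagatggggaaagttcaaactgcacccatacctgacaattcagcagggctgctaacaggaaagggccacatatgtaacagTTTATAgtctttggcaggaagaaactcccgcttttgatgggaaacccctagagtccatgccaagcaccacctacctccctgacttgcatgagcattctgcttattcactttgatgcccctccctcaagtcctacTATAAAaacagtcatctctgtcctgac

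The motifs were chosen after these sequences had been seen. A TATAAA on the gene's own strand lay within the last 50 bases before the start in 4 of the 7 Reg genes, against 2.63% of 32851 promoter windows of the RefSeq table. It began 30 bases before the start in Reg2 and Reg1, 29 bases before it in Reg3b and 27 bases before it in Reg3g. The E-box letters occurred in 5 of the 7 windows, namely those of Reg2, Reg3a, Reg3b, Reg3d (at 2 places) and Reg4, against 17.2% of all windows. STAT-type letters occurred in Reg3b as TTCTTGGAA, 129 bases before the start, and in Reg3d as TTCCCAGAA, 238 bases before it, against 7.02% of all windows. The letters TTTCCC, the other part of a PTF1 site, were in 4 of the 7 windows (21.9% of all), where in Reg3d 1 match overlaps the STAT-type letters. The AP-1 letters TGANTCA were in 1, that of Reg1 (6.75% of all). For Reg4 the window ends at base 98222155 of chromosome 3, inside the gene as located below, which begins at base 98222138. Positions in Reg4 are therefore relative to another start, at base 98222156. A match of letters is a description and not a bound site.

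**Figure D1:**
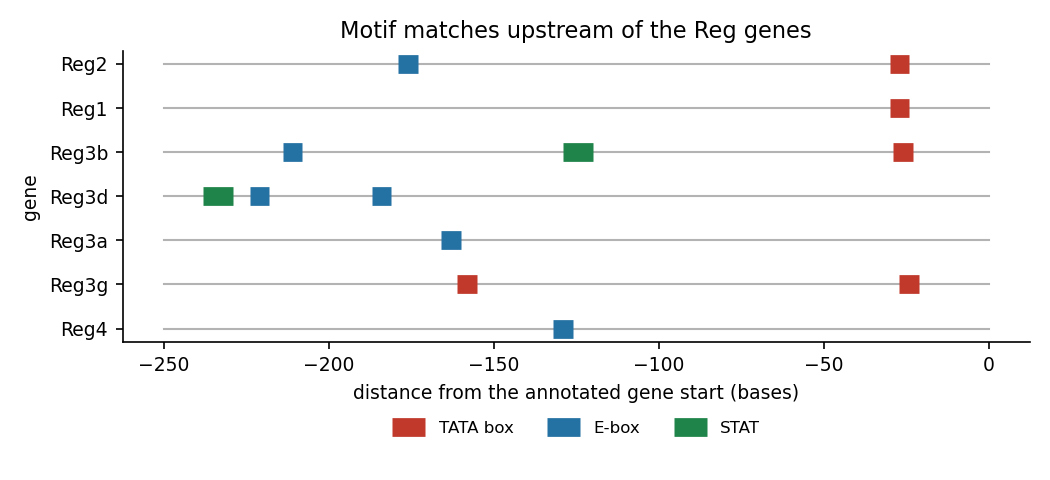
Positions of motif matches in the 250 bases before each annotated Reg gene start, with distance in bases on the horizontal axis and 1 line per gene. Blocks mark TATA box (red), E-box (blue) and STAT-type (green) letters on either strand, and the TATA box blocks of Reg2, Reg1, Reg3b and Reg3g line up 27 to 30 bases before the start.

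Aligned without penalty for free ends, the windows of clustered Reg genes were identical at 58.7% (Reg2 and Reg3b) to 71.5% (Reg3a and Reg3g) of the aligned bases. Windows of Reg4 against those of the clustered genes gave 58.6% to 65.4%, a range that overlaps, and the Reg1 and Reg2 pair, at 65.2%, lay within it. Reg3b and Reg3g were identical at 70.04% of 247 aligned bases. Of the Reg3b and Reg3g pair, Reg3b was well above the floor in control islets and Reg3g was under it on both arrays.

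Reg2, known for its induction in regenerating and autoimmune-challenged islets, showed the widest separation. Its probe set 1416139_at (gene at chr6:78405155-78408099, + strand) had a signal of 76.6 in knockout-labelled and 725 in control islets. The knockout-labelled signal was thus 10.6% of the control signal, a 9.47-fold lower value (log2 ratio -3.24). On its own array, the knockout-labelled signal stood above 71.7% of all probe sets and the control signal above 95.3%. Reg2 was above the floor on both arrays, so the ratio is measured on both sides and is no bound.

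Reg1, the closest relative of Reg2 in the cluster, was lower by a smaller factor. Probe set 1415905_at (chr6:78425983-78428668, + strand) had a signal of 608 in knockout-labelled and 1709 in control islets. That is 2.81-fold lower (log2 ratio -1.49), and the signal was above 94.5% of all probe sets in knockout-labelled and above 98.1% in control islets.

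Reg3b was the member with a second probe set to set beside the first. Probe set 1448290_at (chr6:78370885-78373466, + strand) had 114 in knockout-labelled and 499 in control islets, 4.37-fold lower (log2 ratio -2.13). Probe set 1416297_s_at had 78.8 in knockout-labelled and 294 in control islets, 3.72-fold lower (log2 ratio -1.90). Both probe sets were lower on the knockout-labelled array than on the control array, and their log2 ratios differed by 0.23. The median gap between the probe sets of the 2801 genes with 2 measured probe sets was 0.26, so the pair lay as close together as such pairs usually do. These probe sets share the RNA and the array, so this gap says nothing of the variation between animals.

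Reg3d, the mouse gene related to hamster islet neogenesis-associated protein, was measurable in control islets only. Probe set 1424009_at (chr6:78375874-78378865, - strand) had 21.5 in knockout-labelled islets, just under the floor, and 70.2 in control islets. The ratio is at least 3.24-fold lower. Reg3d entered the comparison through its control signal alone, so the direction of its ratio was fixed by the filter.

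The remaining members gave no usable ratio. Reg4, a member best known from the gut, had 7.9 in knockout-labelled and 20.6 in control islets with probe set 1418931_at (chr3:98222138-98236748, + strand). Reg3a had 13.3 in knockout-labelled and 10.8 in control islets with probe set 1449495_at (chr6:78380709-78383839, + strand). Reg3g had 2.8 in knockout-labelled and 4.4 in control islets with probe set 1448872_at (chr6:78466269-78468874, - strand). All 6 of these signals lay under the floors, which served here in place of detection calls. Neither the sign nor the size of these differences is therefore read.

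**Figure D2:**
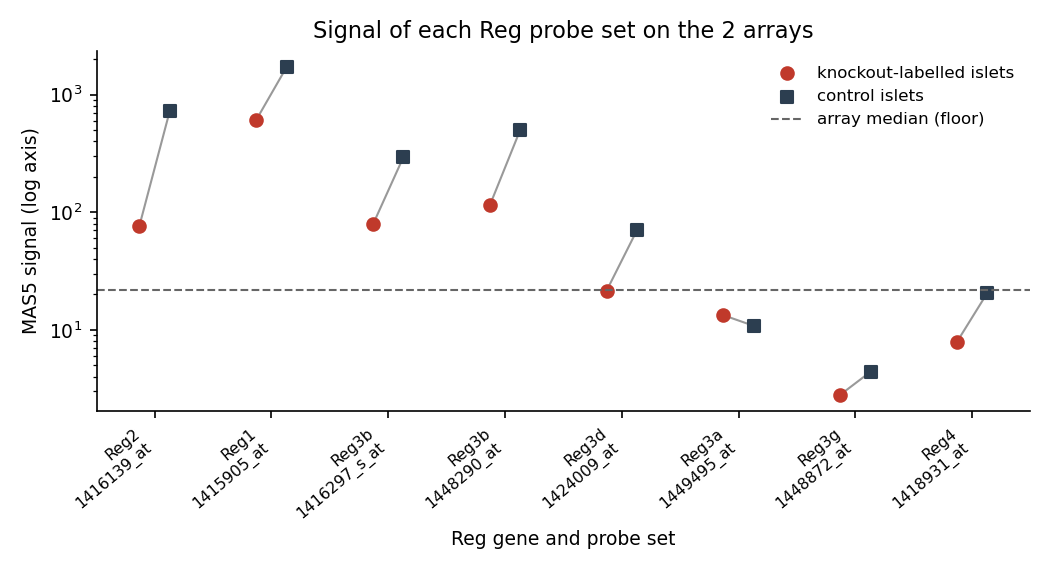
MAS5 signal (log axis) of each Reg probe set, with knockout-labelled islets as red circles and control islets as dark squares joined by a line, 1 array each. The dashed line is the floor of 21.7. Reg2, Reg1 and both Reg3b probe sets are above it on both arrays and lower in knockout-labelled islets, and Reg3a, Reg3g and Reg4 are under it on both.

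In all, 4 of the 7 Reg genes were at least 2-fold lower and 0 were higher by that factor. The counts in this paragraph include Reg3d, whose direction was fixed by the filter. Across all 11857 genes with a ratio, 1.43% were 2-fold lower or more and 1.82% were 2-fold higher or more. By probe set, 5 of the 8 Reg probe sets were at least 2-fold lower and 0 higher by that factor. Over all 21257 probe sets with 1 gene and a ratio these shares were 1.29% lower and 1.88% higher. At a limit of 3-fold, 3 Reg genes counted as lower (Reg2, Reg3b and Reg3d), against 0.143% of all genes. The family was picked on this contrast, so nothing is read from these counts. The median log2 ratio of the 4 Reg genes with a ratio was -1.91, beside 0 for all genes with a ratio. It rests in part on the bound of Reg3d, as only 3 Reg genes were above the floor on both arrays.

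As there are no replicates, the spread of ratios among genes with similar signal is given for scale. Among the 500 genes nearest to Reg2 in mean signal, the central 95% of log2 ratios spanned -0.78 to 0.69. For the 500 genes nearest to Reg1 the range was narrower, from -0.55 to 0.41, and for those nearest to Reg3b probe set 1448290_at it ran from -0.77 to 0.67. The family was picked for its ratios, so their place against these ranges is no support for a difference. Of the 500 neighbours of Reg2 in signal 6 were at least 2-fold lower, as were 4 of those of Reg1. Such ranges hold real differences between the preparations as well as measurement noise, and leave out the variation between animals.

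Ratios of the Reg genes were also set beside each other. The log2 ratio of Reg2 was 1.75 below that of Reg1, a 3.37-fold difference between their ratios. Reg2 was 1.12 and 1.35 below the Reg3b probe sets, and these were 0.63 and 0.40 below Reg1. For scale, the gap between 2 probe sets of 1 gene stayed under 0.92 in 95% of genes. That gap covers technical differences within the same pair of RNA preparations, so no order of the Reg genes can be drawn from it. Reg1 and Reg2 are close paralogs, and how far each probe set takes up the other transcript was not tested.

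**Figure D3:**
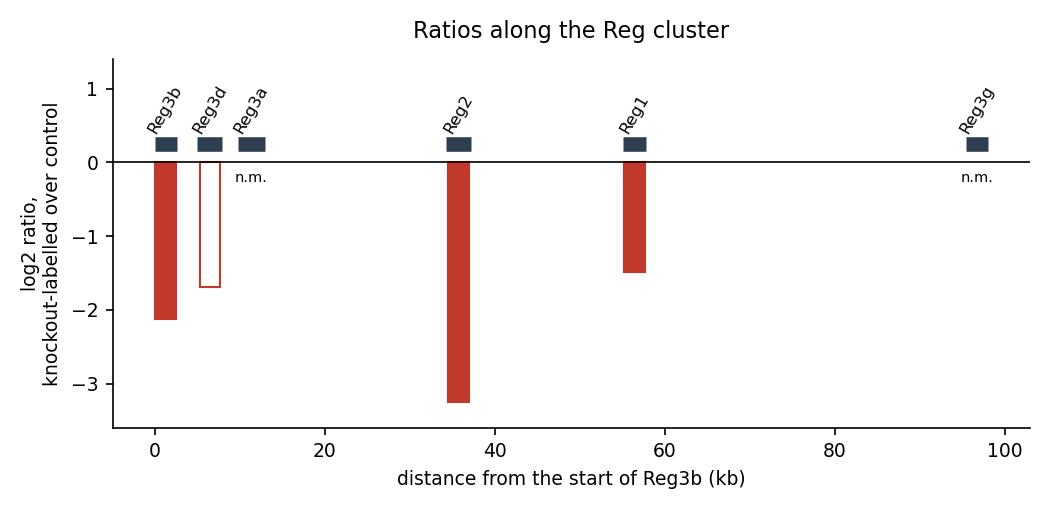
Log2 ratio of knockout-labelled over control islets (bars) for the 6 clustered Reg genes, against distance in kb from the start of Reg3b; dark blocks are the gene bodies. Filled bars are ratios measured on both sides, the open bar (Reg3d) is a bound, and n.m. marks Reg3a and Reg3g, which have no ratio.

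Along the cluster, the order of the genes from the Reg3b end is Reg3b, Reg3d, Reg3a, Reg2, Reg1 and Reg3g. Reg3a and Reg3g, the 2 clustered genes without a ratio, do not adjoin each other, and Reg3a lies between Reg3d and Reg2, which had lower signals in knockout-labelled islets. Within 1 Mb on either side the RefSeq table lists 1 other protein-coding gene, Ctnna2, which encodes a catenin of cell junctions. Ctnna2 had 59.8 in knockout-labelled and 21.3 in control islets, a signal at least 2.77-fold higher. Its control signal was under the floor, so the direction of its ratio was fixed by the filter.

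Because acinar cells are the main known source of Reg proteins, their other secretory products were set beside the family. In knockout-labelled islets 12 of 24 measured genes for acinar enzymes and secretory proteins were at least 2-fold lower, against 1.43% of all genes. By that factor 1 was higher, against 1.82%, and the median log2 ratio was -0.97 beside 0 for all genes. The summed signal of the 25 genes of this list with a probe set was 30077 in knockout-labelled and 55659 in control islets, 54.0% of the control. The summed signal of the 7 Reg genes was 844 in knockout-labelled and 3039 in control islets, 27.8% of the control. Of the 25 acinar genes, 1 was under the floor on both arrays.

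Single acinar genes ran as follows. The lipase-related gene Pnliprp1 had 607 in knockout-labelled and 1688 in control islets, 2.78-fold lower. The chymotrypsin-like protease gene Ctrl had 966 in knockout-labelled and 2470 in control islets, 2.56-fold lower. The carboxypeptidase gene Cpa1 had 1543 in knockout-labelled and 3362 in control islets, 2.18-fold lower. The kallikrein gene Klk1 was 2.68-fold lower in its brightest probe set, but its 4 probe sets had log2 ratios between -1.47 and 0.56, and related kallikreins can share its probes. Prss3, a trypsinogen with close paralogs, went the other way, with 1426 in knockout-labelled and 241 in control islets.

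**Figure D4:**
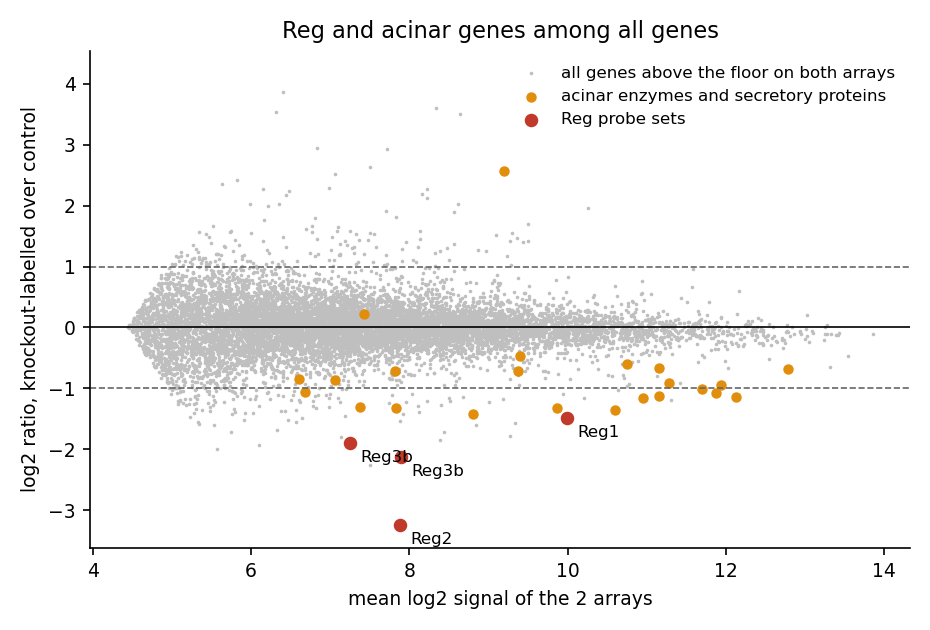
Log2 ratio of knockout-labelled over control islets against mean log2 signal of the 2 arrays, with grey for each gene whose 2 signals pass the floor, orange for acinar enzymes and secretory proteins and red for Reg probe sets; dashed lines mark 2-fold. Each orange point is the brightest probe set of its gene. Reg1 lies at -1.49, beside the lowest orange point at -1.48, and Reg2 at -3.24.

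Taking the brightest probe set of each gene, the lowest log2 ratio among the 24 acinar genes was that of Pnliprp1, at -1.48, next to -1.49 for Reg1. Over all 39 measured probe sets of these genes, 1 had a lower ratio than Reg1 and 0 had a lower ratio than Reg2, Reg3d or either Reg3b probe set. The exception belonged to the elastase gene Cela3b, whose probe set 1435611_x_at had 1938 in knockout-labelled and 5579 in control islets (log2 ratio -1.53), while its other 3 probe sets lay between -1.20 and -0.67. Reg2 was 4.82-fold further from the control than the acinar median, and Reg3b 2.22-fold further. For Reg1 that distance was 1.43-fold and for Reg3d at least 1.65-fold. The ratio of Reg1 thus fell within the range of the acinar probe sets, and those of Reg3b and Reg2 were below it. This is a description of ratios on which the family was picked. In whole islet preparations, fewer acinar cells and less RNA per cell cannot be told apart, and the part that acinar transcripts have in the Reg signals was not tested.

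Acinar identity factors were mostly too dim to compare. Of 9 regulators, 3 had a ratio and 0 of these reached 2-fold. Of all genes, 1.43% were lower and 1.82% higher by that factor. Ptf1a, the basic helix-loop-helix subunit of PTF1, had 15.8 in knockout-labelled and 7.6 in control islets, under the floor on both arrays. Bhlha15, which shapes the secretory machinery of acinar cells, had 741 in knockout-labelled and 714 in control islets, with a log2 ratio of -0.52 in another, dimmer probe set. Gata6 had 120 in knockout-labelled and 63.3 in control islets in its brightest probe set, and another measured probe set gave a log2 ratio of 0.15.

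The cytokine route known to induce Reg3 genes was examined next. Il6, the cytokine itself, had 138 in knockout-labelled and 400.4 in control islets, 2.90-fold lower. Its receptor chain Il6ra had 77.7 in knockout-labelled and 78.3 in control islets in its brightest probe set, and 54.7 in knockout-labelled and 79.9 in control islets in its other one, so its probe sets disagreed. The shared chain Il6st had 242.6 in knockout-labelled and 242.5 in control islets in its brightest probe set, and its other probe sets had log2 ratios between -0.13 and 0.14. The transcription factor gene Stat3 had 1867 in knockout-labelled and 1772 in control islets, with log2 ratios between -0.12 and 0.24 in its other probe sets.

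Among the targets of STAT3, Socs3, a feedback inhibitor, had 653 in knockout-labelled and 1073 in control islets, 1.64-fold lower, with log2 ratios of -0.63 and -0.15 in its other probe sets. The kinase gene Pim1 was 1.99-fold higher in its brightest probe set, and its other one, dimmer, gave a log2 ratio of 0.05. Over the whole list of interleukin-6 family and STAT3 genes, 1 of 23 measured genes was at least 2-fold lower, against 1.43% of all genes. By that factor 0 were higher, against 1.82%, and the median log2 ratio was -0.06. Of the interleukin-22 and interleukin-17 genes 4 of 8 had a ratio, and the interleukin-22 receptor gene Il22ra1 was under the floor on both arrays, with 2.5 in knockout-labelled and 4.4 in control islets. Il17ra had 88.8 in knockout-labelled and 93.1 in control islets in its brightest probe set, but 62.8 in knockout-labelled and 35.2 in control islets in its other one. Il17rc, above the floor in knockout-labelled islets only, was at least 2.11-fold higher, a direction fixed by the filter.

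Several inflammatory genes were lower as well. In the list of cytokines and NF-kappaB genes, 7 of 15 measured genes were at least 2-fold lower, against 1.43% of all genes. By that factor 1 was higher, against 1.82% of all genes, namely the chemokine gene Ccl20, at least 3.67-fold. The list median was -0.53. The chemokine gene Cxcl5 had 29.8 in knockout-labelled and 97.5 in control islets, 3.27-fold lower. The prostaglandin synthase gene Ptgs2 was 2.34-fold lower and the granulocyte growth factor gene Csf3 at least 3.18-fold lower. Ccl20 and Csf3, both in the list counts, each passed the floor on 1 array only, so the filter fixed their directions. Cxcl1 was 4.79-fold lower in its brightest probe set, but its others gave log2 ratios of -0.96 and -0.27. The part of these inflammatory genes in the Reg signals was not tested.

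Macrophages and dendritic cells are a source of such cytokines, and their markers were mostly higher in knockout-labelled islets. Of 16 measured markers 4 were at least 2-fold higher, against 1.82% of all genes, and 0 were lower by that factor, against 1.43%. A log2 ratio above 0 was found for 15 of the markers. Fcer1g, counted among the 4, passed the floor in knockout-labelled islets only, so the filter fixed its direction. The summed signal of the 20 markers with a probe set was 3074 in knockout-labelled and 2071 in control islets. Of these 20, 4 were under the floor on both arrays. Mrc1, the mannose receptor, was 5.34-fold higher, with 130.8 in knockout-labelled and 24.5 in control islets, the latter next to the floor of 21.6. Tyrobp, an adaptor of myeloid receptors, was 2.09-fold higher.

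**Figure D5:**
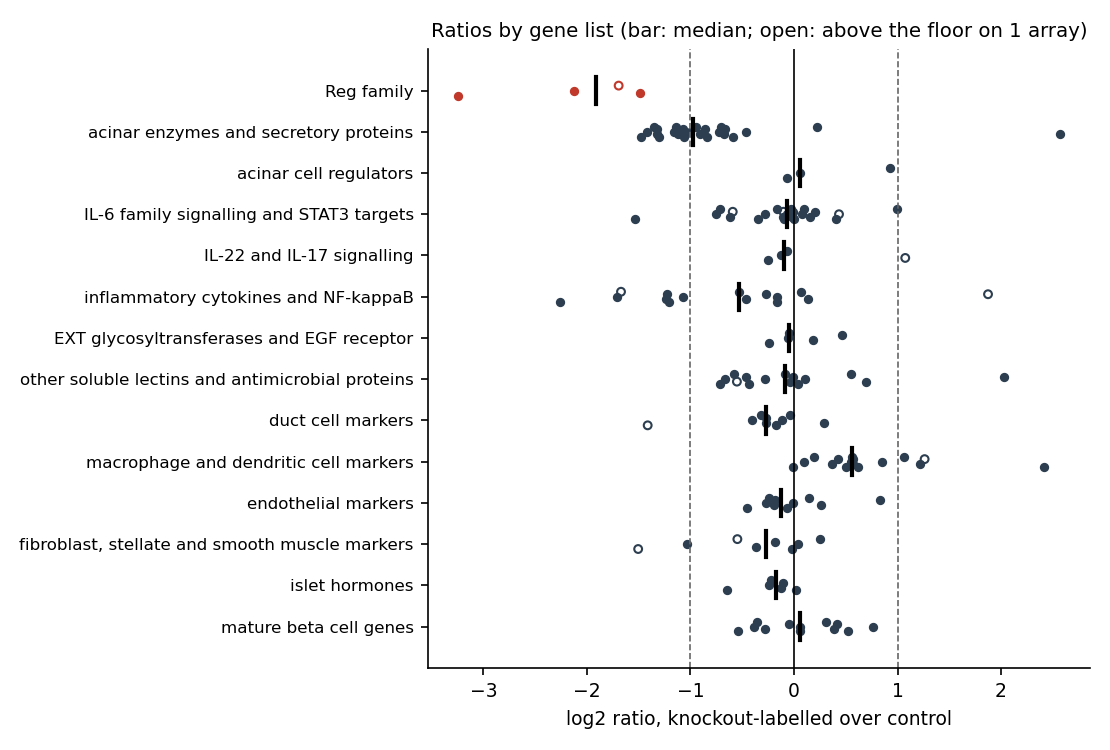
Log2 ratio of knockout-labelled over control islets for every measured gene of the 14 lists, 1 row per list, with a bar at the list median and open points for genes above the floor on 1 array only; dashed lines mark 2-fold. The 4 Reg genes lie between -3.24 and -1.49, the acinar list has its median at -0.97, and the macrophage list lies mostly above 0.

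Other secreted lectins and antimicrobial proteins were mostly within 2-fold. Of 15 measured genes of that list, 0 were at least 2-fold lower, against 1.43% of all genes. By that factor 1 was higher, against 1.82%, and the median log2 ratio was -0.08. The exception was Sftpd, a collectin first known from lung surfactant, with 789 in knockout-labelled and 194 in control islets, 4.07-fold higher in its single probe set. Lgals3, a galectin of macrophages and epithelia, had 713 in knockout-labelled and 442 in control islets. Zg16, a lectin of acinar granules, was 1.59-fold lower, and Defb1, a defensin, 1.64-fold lower.

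On the receiving side, Extl3, an EXT-family glycosyltransferase described as a receptor of Reg proteins, had 121 in knockout-labelled and 87.8 in control islets. Its other probe set, above the floor in knockout-labelled islets only, gave 43.1 in knockout-labelled and 17.1 in control islets. Both probe sets were higher in knockout-labelled islets, at log2 ratios of 0.46 and at least 0.997, but the filter fixed the direction of the latter. Over 5 measured EXT-family and Egfr genes, 0 reached 2-fold in their brightest probe set and the median log2 ratio was -0.05. By that factor 1.43% of all genes were lower and 1.82% higher.

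With 2 arrays, likeness between genes comes down to 1 ratio each, so the nearest genes are given as values only. Nearest to Reg2 were Cxcl1, Reg3b and Slc12a7, and even Cxcl1 differed from it by 0.98 on the log2 scale. Nearest to Reg3b were Slc12a7, Cxcl1 and Tacr3, within 0.21. Nearest to Reg1 were Sec16b, Pnliprp1 and Plekha4, within 0.018. Ordered by ratio, with genes measured on both sides only, Reg2 ranked 1, Reg3b 3 and Reg1 21 from the low end of 10450 genes. Reg3b is placed here by its brightest probe set. The family was picked on these ratios, so nothing is read from the ranks.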

How the data were processed

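Islet RNA of 1 knockout-labelled and 1 control array was compared. The deposited values are linear intensities, MAS5 signals per the submitters' processing notes, for 45037 probe sets per array. The version, the scaling target and detection calls are not given in the sources used here. Array medians (21.7 and 21.6) and trimmed means (99.3 on both) were nearly equal, so the intensities were used without further scaling. Platform annotation, which is dated, gave 1 gene for 34945 probe sets, more than 1 for 932 and no name for 9160. Among those with 1 gene, 34741 matched the RefSeq table (GRCm38.p6) by Entrez identifier.

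Each gene took the ratio of its brightest probe set. Signals under the 50th percentile were raised to it, and log2 ratios are knockout-labelled over control. No test is possible with 1 array per group, and the number of arrays limits the precision. The members and the 14 gene lists were chosen with earlier results of these data known. The genes named are all Reg probe sets, preset genes of the pathways, up to 4 genes per list by size of ratio past 2-fold (otherwise 2), the 3 nearest in ratio to Reg1, Reg2 and Reg3b, and neighbours within 1 Mb. Zg16, Lgals3, Defb1, Bhlha15, Ptgs2, Pim1, probe sets singled out and genes in the closing section outside this rule were named after their values were seen. The procedure was tested on simulated data with changes planted in brighter genes only and noise not taken from these arrays. Recovery of changes in weaker genes was not checked. Alternatives were other floors, a pseudocount of 16, division by the median, quantile and loess scaling, the mean over probe sets, and size limits of 1.5-fold and 3-fold. Python 3.11.15, pandas 2.3.3, statsmodels 0.14.6 and Biopython 1.88 were used.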

Additional observations from a re-analysis of the deposited data

How the results depend on the processing

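No paired analysis was possible because each group has 1 array. Over the 6 other floors and scalings, the log2 ratio of Reg2 ran from -3.25 to -3.00, that of Reg1 from -1.50 to -1.46 and those of the Reg3b probe sets from -2.14 to -1.98 and from -1.93 to -1.71. Reg3d ran from -1.72 to -0.03. The last value came with the floor at the 70th percentile, which lies close to its control signal. None of these Reg ratios changed direction, but that of Reg3d was fixed by the filter wherever only its control signal passed the floor. Of 21 other named genes past 2-fold, some passed the floor on 1 array only, where the filter fixes the direction. With that limit, 0 of the 21 changed direction under 7 alternatives where a ratio could be had. The ratios of 10 dropped under 2-fold in at least 1 of them, among them Cxcl5 (-0.51), Ccl20 (0.24), Csf3 (-0.01), Mrc1 (0.97) and Tyrobp (0.49) under the 70th percentile floor and Klk1 (-0.71) with the mean over probe sets.

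The count of Reg genes at least 2-fold lower was 5 under the 30th percentile floor, where Reg4 entered with a bound of -1.26, and 3 under the 70th percentile floor. It was 4 with no floor and under the 3 scalings. The Reg median was -1.60 under the 30th percentile floor and -1.20 with a pseudocount of 16 in place of a floor. Over the whole table, 697 genes were higher and 645 lower under the 30th percentile floor, of 15441 with a ratio. Under the 70th percentile floor these counts were 96 and 64 of 8188. Of 11857 genes they were 823 and 735 at 1.5-fold and 52 and 17 at 3-fold, beside 216 and 170 at 2-fold. The fibroblast, stellate and smooth muscle median was 0.12 under the 70th percentile floor and -0.064 without a floor, beside -0.27. The inflammatory median was -0.27 without a floor, beside -0.53, and under the 70th percentile floor 4 of its genes were lower and 0 higher. The acinar median stayed between -0.98 and -0.90. List counts moved too. Under the 30th percentile floor, 3 interleukin-6 and STAT3 genes were lower and 1 higher, 3 duct markers were lower and 1 higher, 1 hormone gene was lower, and 2 lectin or antimicrobial genes were higher. Under the 70th percentile floor, 0 duct and 0 fibroblast markers were lower, and 0 macrophage and 0 interleukin-22 or interleukin-17 genes higher. Without a floor, 1 fibroblast marker was lower, and 1 macrophage, 1 interleukin-6 and STAT3, and 0 interleukin-22 or interleukin-17 genes were higher. Weak signals limit Reg3d, Reg3a, Reg3g and Reg4, and the causes of these shifts were not tested.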

Other observations

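Markers of further cells that an islet preparation can hold were also compared. Of 9 measured duct cell markers, 1 was at least 2-fold lower, against 1.43% of all genes. By that factor 0 were higher, against 1.82%, and the median log2 ratio was -0.27. The carbonic anhydrase gene Car2, the marker counted as lower, had 11.2 in knockout-labelled and 57.8 in control islets, at least 2.66-fold lower. Car2 passed the floor in control islets only, so the filter fixed its direction. The keratin gene Krt19 had 41 in knockout-labelled and 51.1 in control islets. Endothelial markers had a median of -0.12 over 10 genes and 0 at 2-fold. Of 8 measured fibroblast, stellate and smooth muscle markers, 2 were at least 2-fold lower, against 1.43% of all genes. By that factor 0 were higher, against 1.82%. Dcn was at least 2.84-fold lower, but it passed the floor in control islets only, so the filter fixed its direction. Col3a1 was 2.04-fold lower, where it had 22.5 in knockout-labelled islets, next to the floor of 21.7.

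Endocrine genes stayed within 2-fold. The 6 measured islet hormone genes had a median log2 ratio of -0.17, and Ppy, the pancreatic polypeptide gene, differed most at 8095 in knockout-labelled and 12702 in control islets. The 12 measured genes of mature beta cells had a median of 0.06, with Pcsk1, a prohormone convertase gene, 1.70-fold higher and Ucn3, a peptide gene of mature beta cells, 1.45-fold lower.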
